A study of Homo sapiens with 8 samples.

Results

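The nuclear receptors that bind retinoids are encoded by 6 human genes, RARA, RARB and RARG for the retinoic acid receptors (RARs) and RXRA, RXRB and RXRG for the retinoid X receptors (RXRs). All 6 were taken by name, out of 20136 protein-coding genes placed on the genome. H3K4me3 and H3K27ac peaks were read over each gene body with 20 kb on either side, and separately at each of the gene's promoters. The cells were HL-60, an established human promyelocytic leukemia line, grown for 4 days with 1 µM all-trans retinoic acid (ATRA group) or with the same amount of its solvent, ethanol (control group). Fresh medium with ATRA or ethanol was given once during that time. Each group had 2 ChIP-seq libraries per mark, 8 in all. All libraries came from this single cell line, so they describe one leukemia genotype, and no label says that the replicates were separate cultures. In a bulk population, a mark on more of the cells and a stronger mark in each cell cannot be told apart.

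An RAR works as a heterodimer with an RXR on retinoic acid response elements in DNA, which are direct repeats of a six-base half-site. Without ligand the pair holds corepressors with histone deacetylases, and binding of ATRA to the RAR exchanges them for coactivators with acetyltransferases. RXRs also pair with other nuclear receptors, such as the vitamin D, thyroid hormone and peroxisome proliferator-activated receptors. In myeloid cells, RARA is the receptor fused to PML in acute promyelocytic leukemia, and ATRA drives granulocytic differentiation through it. H3K4me3 marks active or poised promoters, and H3K27ac marks active promoters and enhancers.

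The H3K4me3 libraries held 16258 and 16487 peaks in ATRA replicates 1 and 2, and 16160 and 13241 in control replicates 1 and 2. Peak numbers spread more widely for H3K27ac, from 28200 and 39332 in the ATRA group to 15457 and 29616 in the control group. The total length under peaks was higher in the ATRA group by 0.22 for H3K4me3 and 0.87 for H3K27ac on the log2 scale. The read number behind a peak is unknown, so the precision rests on 2 libraries per group. With so few libraries the smallest exact two-sided permutation p is 0.33. A difference was therefore called only where both ATRA libraries lay above (higher) or below (lower) both control libraries, and each count was read against the share of all genes called in the same way. Of 10 myeloid marker genes, 8 had an H3K4me3 peak at a start site in both ATRA and 8 in both control libraries. Markers of T cells, liver and epithelium had no H3K4me3 peak, although the T cell gene CD3E had H3K27ac in both ATRA libraries, and the erythroid gene GATA1 had an H3K4me3 peak in 3 of 4 libraries.

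Across the 6 genes, the H3K4me3 length was higher upon the ATRA induction at RARG and RXRB and lower at RXRA, and the H3K27ac length was higher at RARA, RARB and RARG. These 2 higher calls for H3K4me3 compare with 30.0% of all protein-coding genes and 41.3% of those with a peak in any library, and the 1 lower call with 2.46% and 3.39%. For H3K27ac, 3 of 6 genes were higher, against 33.6% of all genes and 43.7% of those with a peak, and 0 were lower, against 2.96% and 3.86%. The counts of higher calls are thus near what all genes gave. The lower H3K4me3 call of RXRA belongs to a direction that few genes took. Changes are given as log2 of the mean ATRA length over the mean control length, after adding 1000 bp to both, which understates changes of short lengths. On this scale the median of all genes was 0.07 for H3K4me3 and 0.27 for H3K27ac, and among genes with a peak in any library 0.16 and 0.49.

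**Figure D1:**
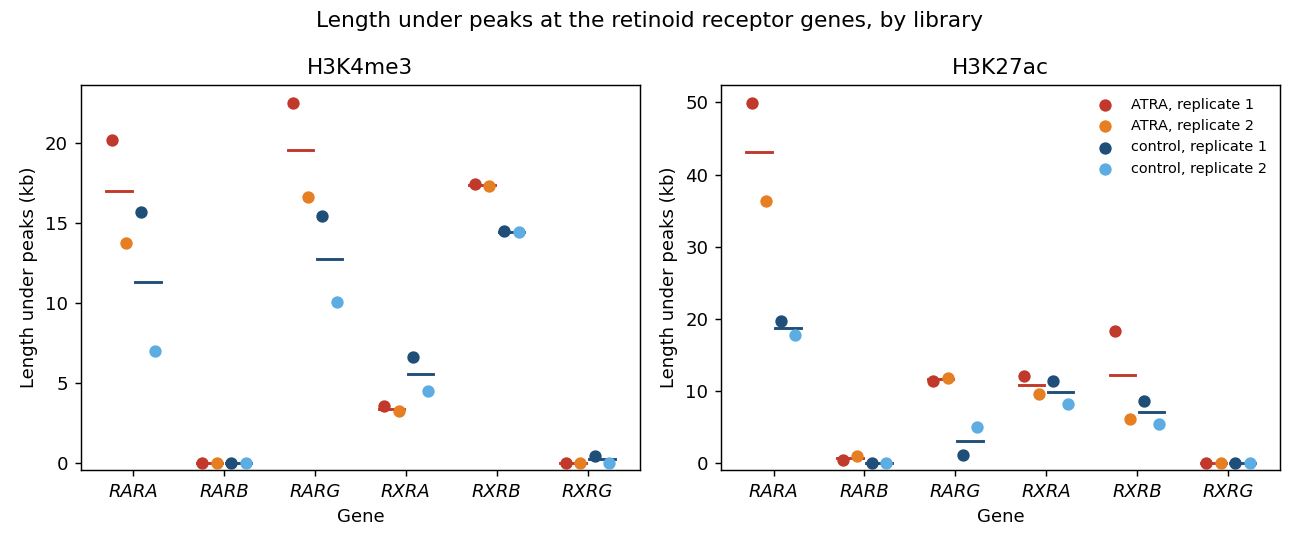
Length under H3K4me3 (left) and H3K27ac peaks (right) in kb, over each gene and 20 kb on either side; each point is 1 library and each line the mean of 2 libraries of a group. RARA has the longest H3K27ac cover, with both ATRA points (49940 and 36347 bp) above both control points (19678 and 17761 bp), RXRA has its H3K4me3 points lower in ATRA, and RARB and RXRG lie at or near 0.

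**Figure D2:**
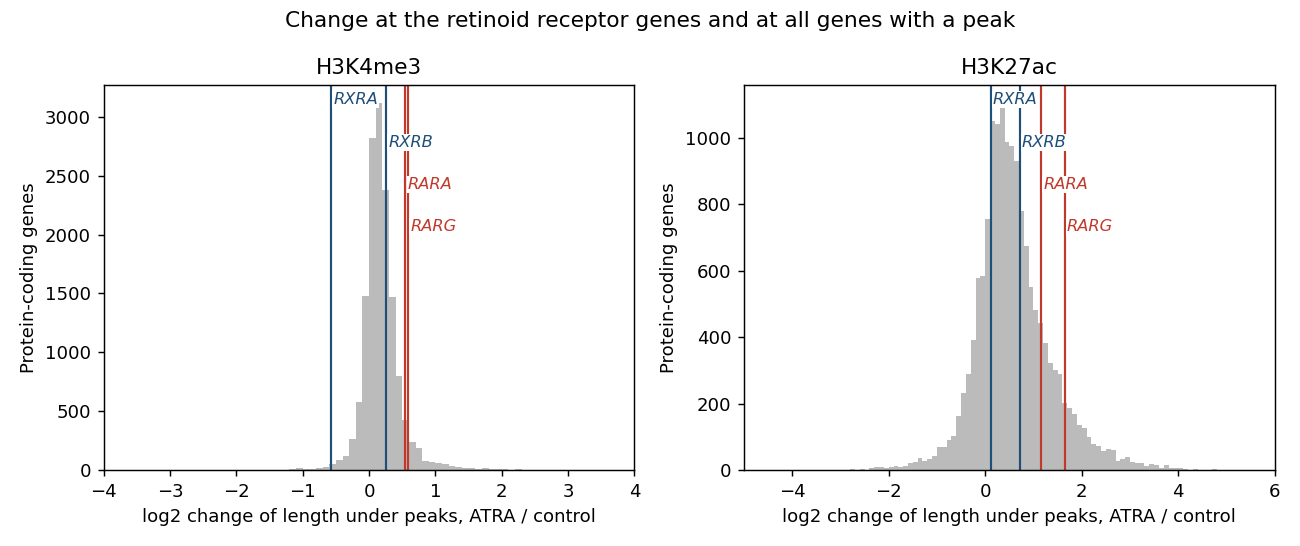
Log2 change of the length under peaks between ATRA and control (x axis) against the number of protein-coding genes (y axis), for genes with a peak in at least 1 library (gray), with the receptor genes as lines, RARs in red and RXRs in blue; genes at 0 in all libraries of a group are not drawn. RXRA lies in the lower tail for H3K4me3 (-0.58), and RARG lies in the upper part for both marks (0.58 and 1.65).

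RARA (chr17:38465432-38513895, plus strand, hg19) had the most H3K27ac of the 6 genes. The annotation gives it 10 transcripts that start at 7 promoters, numbered here in the direction of transcription, with start sites of a gene joined when within 500 bp of each other. Promoter 1 starts the reference transcript (MANE Select, the transcript agreed on by RefSeq and Ensembl), and promoter 2 lies 9101 bp further on in its intron 1. The sequences of these promoters, 250 bases before and 50 after the start site on the gene's strand, are given because the marks differed between them.
RARA promoter 1, chr17:38465182-38465481: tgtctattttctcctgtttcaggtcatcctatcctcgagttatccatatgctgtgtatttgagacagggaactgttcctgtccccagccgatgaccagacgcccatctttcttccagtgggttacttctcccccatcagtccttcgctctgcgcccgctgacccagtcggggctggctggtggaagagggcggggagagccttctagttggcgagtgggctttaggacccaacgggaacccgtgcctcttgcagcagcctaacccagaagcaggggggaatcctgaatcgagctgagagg
RARA promoter 2, chr17:38474287-38474586: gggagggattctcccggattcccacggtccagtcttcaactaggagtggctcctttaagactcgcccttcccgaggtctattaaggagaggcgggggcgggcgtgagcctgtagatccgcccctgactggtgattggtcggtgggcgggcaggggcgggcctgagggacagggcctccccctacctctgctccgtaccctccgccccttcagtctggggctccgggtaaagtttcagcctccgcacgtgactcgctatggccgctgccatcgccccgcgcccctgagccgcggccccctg
Promoter 1 has a GC content of 57.0% and 12 CpG dinucleotides, and promoter 2 has 67.3% and 23.

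Over RARA, H3K27ac peaks covered 49940 bp in ATRA replicate 1 and 36347 bp in ATRA replicate 2. In the control replicates they covered 19678 and 17761 bp. Both ATRA libraries were thus above both control libraries, with a log2 change of 1.16, and 85.2% of all protein-coding genes had a change of this size or below. As bp per Mb of the library's whole peak length, the values were 770 and 422 in ATRA against 683 and 329 in control, and the groups overlapped. Among peaks with a deposited −log10 q of at least 5, RARA had none in either ATRA library and 792 and 1310 bp in the control libraries, so the call turned to lower. The deposited q values are of doubtful scale, because 15.1% to 26.5% of the H3K27ac peaks per library have a −log10 q below 1, and what this filter selects is therefore uncertain.

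The H3K27ac domain of RARA was wider on both sides in ATRA than in control cells. Between promoters 2 and 4, a stretch of 23107 bp in introns 1 and 2, peaks covered 22142 and 22491 bp in ATRA and 17139 and 17388 bp in control. Most of this core was under H3K27ac in all 4 libraries. From promoter 1 to promoter 2, 9101 bp, the cover was 9101 and 3853 bp in ATRA and 799 and 373 bp in control. In the 20 kb before promoter 1 it was 3895 and 3972 bp in ATRA, and no peak lay there in either control library. Between promoter 4 and the gene end, 16256 bp, it was 14596 and 6031 bp in ATRA and 1740 and 0 bp in control. In these segments, which were set after their values had been seen, the groups did not overlap. The cover in the 20 kb before promoter 1 includes a detached stretch at chr17:38459541-38460918, at the 3′ end of the replication licensing gene CDC6. This stretch had 1069 and 1232 bp in ATRA and none in control.

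**Figure D3:**
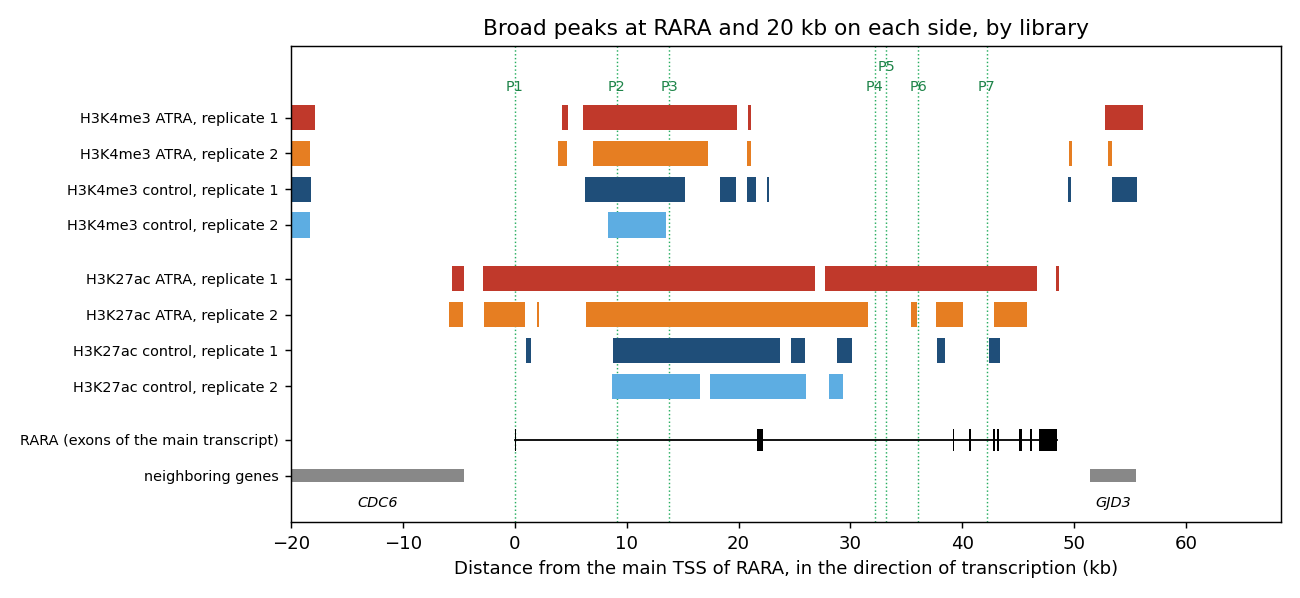
Broad peaks of the 8 libraries at RARA (rows, colored by library) against the distance from the main start site in kb, in the direction of transcription; dotted lines are promoters P1 to P7, black boxes the exons of the reference transcript, and gray bars neighboring genes. H3K27ac spreads from P2 over P1 and towards P7 in ATRA, while H3K4me3 stays around P2 and P3 with no peak at P1.

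At RARA promoter 1, H3K4me3 was not found at the start site in any library, and the nearest peak lay between 3843 and 8293 bp away. H3K27ac peaks over this start site were 29639 and 3635 bp long in ATRA replicates 1 and 2, and the start site lay outside peaks in both control libraries. Within 2 kb of it, H3K27ac covered 4013 and 2964 bp in ATRA and 480 and 0 bp in control. The start site of promoter 1, that of the reference transcript, was therefore under H3K27ac in the ATRA group only, without H3K4me3. At promoter 2, H3K4me3 peaks were 13750 and 10259 bp long in ATRA and 8941 and 5228 bp in control. H3K27ac peaks there were 29639 and 25249 bp long in ATRA and 14913 and 7863 bp in control. Promoter 2 thus carried both marks in all 4 libraries, with longer peaks in ATRA, as did promoter 3 for H3K27ac. With the libraries merged, the H3K4me3 stretch over both promoters had 13750 and 10259 bp in ATRA and 10368 and 5228 bp in control. The groups overlapped there. Within 2 kb of promoter 2, H3K4me3 covered 4005 bp in all libraries except control replicate 2, with 2801 bp. Within 2 kb of promoter 3, H3K27ac covered 4001 bp in all 4 libraries. H3K4me3 at promoter 3 was 13750 and 10259 bp in ATRA, 8941 bp in control replicate 1 and absent at the start site in control replicate 2.

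Promoters 4 to 7 of RARA, which start shorter transcripts in introns 2 and 4, had no H3K4me3 in any library, and their start sites were under H3K27ac only in ATRA replicate 1, by a peak of 18955 bp. Within 2 kb of promoter 4, H3K27ac covered 4001 and 1384 bp in ATRA and was absent in both control libraries. The antisense transcript RARA-AS1 starts under the same peak, and the ChIP-seq signal has no strand.

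For H3K4me3 over the whole RARA region, the values were 20150 and 13744 bp in ATRA and 15682 and 6950 bp in control. Control replicate 1 lay above ATRA replicate 2, so the groups overlapped, with a log2 change of 0.54. This change rests on single libraries, at 0.26 without ATRA replicate 1, 0.78 without ATRA replicate 2, 1.17 without control replicate 1 and 0.11 without control replicate 2. With the merged stretches over the start sites of CDC6 and of GJD3, a gap junction gene downstream, left out of all libraries, the values were 14607 and 11754 bp in ATRA. In control they were then 11659 and 5228 bp, and RARA was called higher. A small H3K4me3 stretch in intron 1, chr17:38469287-38470168, had 546 and 801 bp in ATRA and none in control.

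RARB (chr3:24729378-25639423, plus strand) is the textbook target of retinoic acid among the receptors, with a response element just before the start site of its main promoter. It has 23 transcripts from 9 promoters, and promoter 5 starts the reference transcript. Its sequence is shown for this element, in capitals, a direct repeat of half-sites spaced by 5 bases that starts 53 bases before the start site.
RARB promoter 5, chr3:25469504-25469803: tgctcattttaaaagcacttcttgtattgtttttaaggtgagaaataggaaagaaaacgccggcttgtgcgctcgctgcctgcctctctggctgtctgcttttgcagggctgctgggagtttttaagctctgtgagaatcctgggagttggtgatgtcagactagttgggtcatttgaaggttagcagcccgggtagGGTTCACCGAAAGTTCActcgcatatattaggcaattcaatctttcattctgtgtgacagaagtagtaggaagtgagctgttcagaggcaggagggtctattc
None of the 9 RARB promoters held a peak of either mark in any of the 8 libraries. The nearest H3K27ac peak to promoter 5 lay 174129 bp away or further, and the nearest H3K4me3 peak 230492 bp or further. No H3K4me3 peak fell in the whole region of 950 kb. H3K27ac covered 414 and 981 bp of it in ATRA and 0 bp in both control libraries, which gave the higher call. These peaks lay after the gene end at chr3:25644336-25644628 and chr3:25645236-25646118, inside TOP2B, the topoisomerase gene next to RARB. The RARB call thus rests on short peaks outside the gene, with a log2 change of 0.76 (0.50 without ATRA replicate 2), and it was lost with the gene body alone and with equal peak numbers per library.

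RARG (chr12:53604351-53626764, minus strand) encodes the RAR known from skin and from blood stem cell maintenance. Its 18 transcripts start at 3 promoters, with the reference transcript at promoter 1 and promoter 2 in intron 3. At promoter 1, H3K4me3 peaks were 3153 and 1967 bp long in ATRA and 3393 and 2691 bp in control. At promoter 2 they were 6811 and 5164 bp in ATRA and 7307 and 4113 bp in control. The groups overlapped at both promoters. Promoter 1 had no H3K27ac in any library. Within 2 kb of promoter 2, H3K27ac covered 964 and 2063 bp in ATRA and 0 and 278 bp in control, and only the peak of ATRA replicate 2 reached a start site.

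Over the whole RARG region, H3K4me3 covered 22473 and 16607 bp in ATRA and 15427 and 10053 bp in control, a log2 change of 0.58. It was 0.36 without ATRA replicate 1, 0.77 without ATRA replicate 2, 0.89 without control replicate 1 and 0.32 without control replicate 2. H3K27ac covered 11385 and 11712 bp in ATRA and 1115 and 4909 bp in control, a log2 change of 1.65, which was 1.09 without control replicate 1 and 2.57 without control replicate 2. The groups did not overlap for either mark. A stretch at chr12:53596833-53605315, over RARG exon 10 and the start site of ITGB7, the integrin β7 gene that lies tail to head with RARG, had 8483 and 7002 bp of H3K4me3 in ATRA against 1548 and 0 bp in control. H3K27ac at chr12:53599017-53606736 covered 7336 and 7720 bp in ATRA and 507 and 2908 bp in control. Without this 3′ stretch, H3K4me3 was 13990 and 9605 bp in ATRA and 13879 and 10053 bp in control, so the groups overlapped and the call was lost. H3K27ac without its 3′ stretch was 4049 and 3992 bp in ATRA and 608 and 2001 bp in control, still higher in ATRA. With the merged stretches over the start sites of ITGB7 and of MFSD5, on the other side, both left out of all libraries, H3K4me3 overlapped at 10732 and 7331 bp in ATRA and 10700 and 6804 bp in control. H3K27ac was then 2581 and 2502 bp in ATRA and 0 and 847 bp in control, with a log2 change of 1.31. These left-out stretches were chosen after their values had been seen. In a planned setting, only single peaks over another gene's start site were left out. H3K27ac was then 2581 and 2502 bp in ATRA and 507 and 3755 bp in control, so the groups overlapped and the call was lost.

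**Figure D4:**
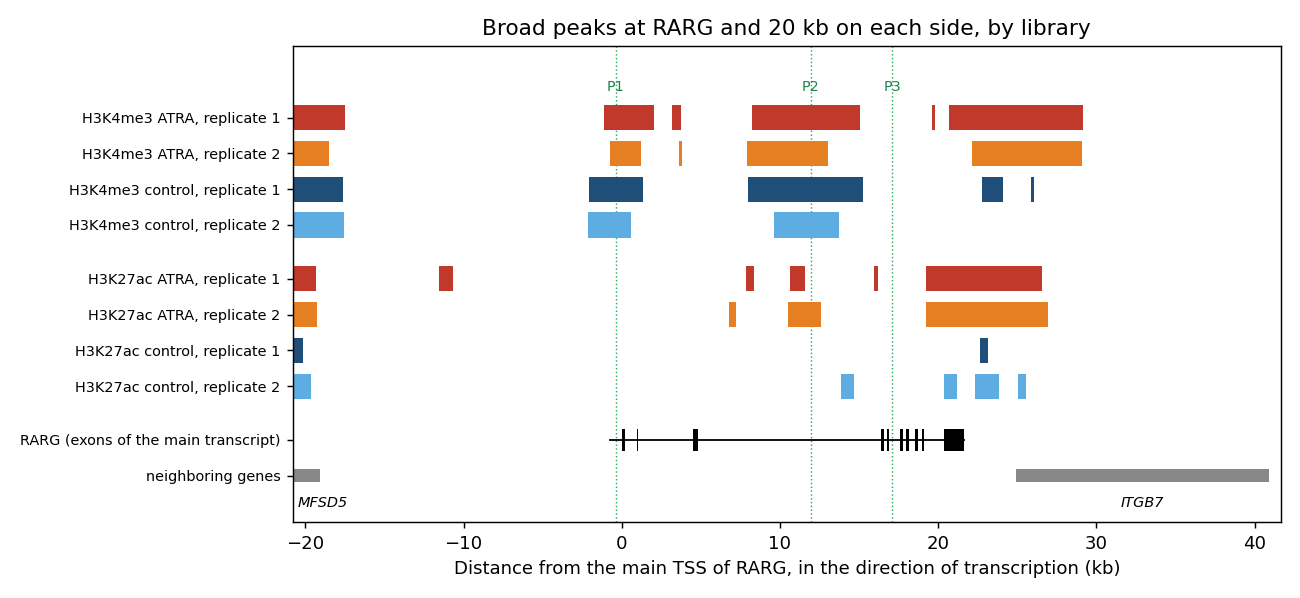
Broad peaks of the 8 libraries at RARG (rows, colored by library) against the distance from the main start site in kb, in the direction of transcription; dotted lines are promoters P1 to P3, black boxes the exons of the reference transcript, and gray bars neighboring genes. P1 and P2 have H3K4me3 in all 4 libraries, and the widest ATRA gain of both marks lies at the last exon and the ITGB7 start site.

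RXRA (chr9:137208944-137332431, plus strand) encodes the main RXR partner of RARs in myeloid cells. Its 5 transcripts start at 5 promoters, with the reference transcript at promoter 2. Promoter 3, 45516 bp further on in intron 1, starts a transcript with no annotated coding sequence. Their sequences are given because H3K4me3 differed in position at promoter 2, and both marks were lower around promoter 3.
RXRA promoter 2, chr9:137218051-137218350: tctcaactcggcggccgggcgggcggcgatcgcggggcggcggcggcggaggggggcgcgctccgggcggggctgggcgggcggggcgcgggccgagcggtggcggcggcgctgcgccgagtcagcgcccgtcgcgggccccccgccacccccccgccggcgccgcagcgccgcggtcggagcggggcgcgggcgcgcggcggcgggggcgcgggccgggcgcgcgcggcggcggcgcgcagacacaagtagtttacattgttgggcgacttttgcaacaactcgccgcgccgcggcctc
RXRA promoter 3, chr9:137263567-137263866: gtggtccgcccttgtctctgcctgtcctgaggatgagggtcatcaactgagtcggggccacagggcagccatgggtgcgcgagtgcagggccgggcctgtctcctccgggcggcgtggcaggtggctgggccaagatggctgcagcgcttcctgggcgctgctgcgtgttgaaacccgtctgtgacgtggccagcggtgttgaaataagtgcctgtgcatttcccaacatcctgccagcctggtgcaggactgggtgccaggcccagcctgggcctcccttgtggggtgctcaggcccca

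H3K4me3 over RXRA covered 3516 and 3230 bp in ATRA and 6587 and 4476 bp in control. Both ATRA libraries lay below both control libraries, with a log2 change of -0.58 (-0.32 without control replicate 1), and 0.616% of protein-coding genes had a change this low or lower. The call held when lengths were taken as shares of the library's whole peak length, at 55.7 and 51.8 bp per Mb in ATRA against 110 and 93.8 in control. All H3K4me3 peaks of RXRA passed the stricter q threshold.

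The lower H3K4me3 of RXRA came from intron 1. A stretch at chr9:137264543-137267326 had peaks of 2784 and 2143 bp in control replicates 1 and 2 and none in ATRA. It starts 726 bp after the start site of promoter 3 in control replicate 1 and 1304 bp after it in control replicate 2. Of 19906 merged H3K4me3 stretches of the genome, 0.759% were found in both control libraries and neither ATRA library. H3K27ac over the same start site had peaks of 3030 and 3937 bp in ATRA and 8161 and 5926 bp in control, within chr9:137259990-137268150. Both marks were thus shorter in ATRA at this site, with groups that did not overlap, and H3K27ac was still present there in all 4 libraries. Of all promoters, 0.895% were lower for H3K27ac, and 3.91% of those with a peak.

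At the main promoter of RXRA, H3K4me3 flanked the start site. In 3 of 4 libraries the start site lay between a pair of peaks, in a gap of 905 and 998 bp in ATRA and of 898 bp in control replicate 2. In control replicate 1 it lay within a peak of 3803 bp. The gaps had a GC content of 82.6% to 83.6%, and the promoter window shown above has 84.0% with 65 CpG dinucleotides. Within 2 kb of the start site, H3K4me3 covered 3096 and 3003 bp in ATRA and 3803 and 2232 bp in control, and the groups overlapped. H3K27ac was absent at the start site in all 4 libraries, and a peak of 396 bp lay within 2 kb of it in ATRA replicate 2 only.

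H3K27ac over the whole RXRA region covered 11970 and 9518 bp in ATRA and 11375 and 8213 bp in control, with overlapping groups and a log2 change of 0.12, which is -0.37 relative to the median of genes with a peak. It changed sign with single libraries, at -0.04 without ATRA replicate 1 and -0.08 without control replicate 2. This near equality sums stretches that moved in opposite directions. In intron 1 at chr9:137230886-137236089, 12585 bp or more after the main start site, the cover was 5204 and 3120 bp in ATRA and 3014 and 1124 bp in control. In intron 2 at chr9:137296640-137299863 it was 2150 and 1420 bp in ATRA and none in control. After the gene end, at chr9:137335436-137336080, it was 601 and 645 bp in ATRA and none in control. Promoters 1, 4 and 5 had no peak of either mark at a start site.

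**Figure D5:**
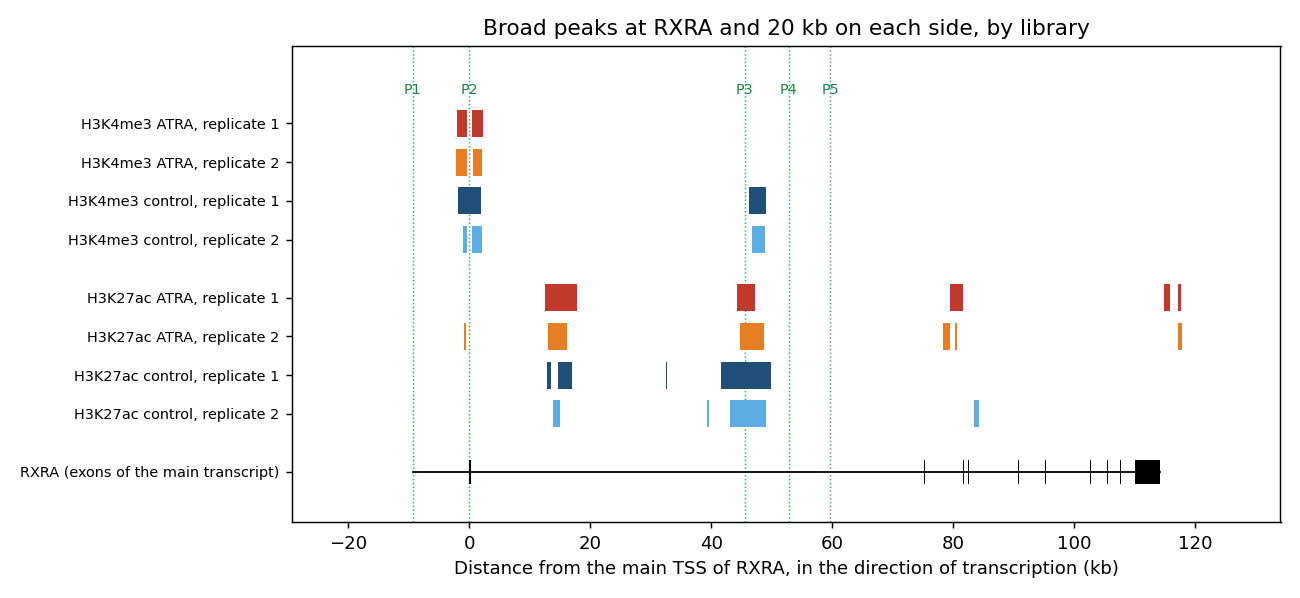
Broad peaks of the 8 libraries at RXRA (rows, colored by library) against the distance from the main start site in kb, in the direction of transcription; dotted lines are promoters P1 to P5 and black boxes the exons of the reference transcript. The H3K4me3 peak after P3 is seen in both control libraries only, and the H3K27ac peak over P3 is longer in control than in ATRA.

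RXRB (chr6:33161365-33168442, minus strand) encodes a broadly expressed RXR and lies in the major histocompatibility complex among close neighbors. Its 5 transcripts start at 3 promoters, and promoter 1 starts the reference transcript. H3K4me3 over the region covered 17421 and 17280 bp in ATRA and 14445 and 14403 bp in control, a log2 change of 0.25 with narrow groups that did not overlap. As shares of the library's whole peak length the groups overlapped, at 276 and 277 bp per Mb in ATRA and 241 and 302 in control. The peak over promoters 1 and 2 was 16424 and 16231 bp long in ATRA and 14086 and 14403 bp in control. It also held start sites of SLC39A7, a zinc transporter gene, HSD17B8, a steroid dehydrogenase gene, and RING1, a Polycomb gene, so its length belongs to several promoters. Within 2 kb of RXRB promoter 1, H3K4me3 filled the whole window of 4052 bp in all 4 libraries.

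H3K27ac at RXRB promoter 1 had peaks of 6300 and 2888 bp in ATRA and 3187 and 2911 bp in control, and the groups overlapped. Over the region it covered 18315 and 6041 bp in ATRA and 8540 and 5429 bp in control. The log2 change of 0.72 rests on ATRA replicate 1, and without that library it was -0.18. A short H3K4me3 stretch near promoter 3, chr6:33163223-33164271, spanned exons 5 to 8 and had 418 and 1049 bp in ATRA and none in control.

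RXRG (chr1:165370159-165414592, minus strand) encodes the RXR known from muscle and brain. Both of its promoters lacked both marks in all 8 libraries, and H3K27ac was absent from its whole region of 84.4 kb. The only H3K4me3 peak, of 420 bp, lay after the gene end in control replicate 1.

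Of the 29 promoters of the 6 genes, 7 had an H3K4me3 peak at a start site in at least 1 library, of which 4 were higher in ATRA and 0 lower. Over all promoters of protein-coding genes, 10.3% were higher and 1.34% lower, and among those with a peak 38.5% and 5.01%. The higher ones were promoters 2 and 3 of RARA and promoters 1 and 2 of RXRB, and each pair shares a peak. For H3K27ac, 11 promoters had a peak, with 3 higher (RARA promoters 1 to 3) and 1 lower (RXRA promoter 3), against 7.14% and 0.895% of all promoters and 31.2% and 3.91% of those with a peak. A peak lay at a start site in all 4 libraries at 5 promoters for H3K4me3 and at 4 for H3K27ac, against 22.6% and 9.34% of all promoters. By the length within 2 kb, 2 promoters were higher and 1 lower for H3K4me3, against 7.30% and 1.52%, and 8 higher and 1 lower for H3K27ac, against 10.7% and 1.51%. These 8 were RARA promoters 1, 2 and 4 to 7 and RARG promoters 2 and 3. All RARA promoters lie in the same H3K27ac stretch when the libraries are merged, so their calls are not independent. RXRA promoter 3 was the one with H3K4me3 within 2 kb in both control libraries and neither ATRA library, a pattern of 0.129% of all promoters, and 0 showed the opposite pattern, against 0.516%. For H3K27ac, 3 promoters (RARA promoters 4 and 5 and RARG promoter 3) had a peak within 2 kb in both ATRA libraries and no control library, against 2.66%, and 0 the opposite, against 0.279%. The H3K27ac calls of RARG promoter 3 rest on 335 and 96 bp in ATRA, and no peak held its start sites. The 96 bp of ATRA replicate 2 were the end of the stretch over the ITGB7 start site. Merged over the 4 libraries of a mark, the peaks of the 6 regions formed 19 H3K4me3 stretches, with 6 higher and 1 lower in ATRA, against 28.2% and 4.06% of all stretches. Of these, 3 were found in both ATRA libraries and no control library, against 3.04%, and 1 in both control libraries and no ATRA library. For H3K27ac there were 27 stretches, with 10 higher and 1 lower, against 19.2% and 2.98%. In both ATRA libraries and no control library were 5, against 8.07%, and the opposite held for 0, against 1.16%.

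By the peak classes of the authors' methods, 6 of 14 H3K4me3 peaks found in both ATRA replicates were absent from the control set, compared with 14.4% of such peaks genome-wide, and 3 of them lay in the RARA region. Of these 3, only the one at chr17:38469623-38470168 in intron 1 had no peak under it in either control library. The one at chr17:38486275-38486585, also in intron 1, and the one over the GJD3 start site overlapped peaks of control replicate 1. Of 9 control peaks, 1 was control-specific, that of RXRA after promoter 3, compared with 3.01%. For H3K27ac, 5 of 14 ATRA peaks and 0 of 10 control peaks were specific, compared with 49.7% and 14.0%.

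Response element motifs were searched as direct repeats on both strands. The half-site AGGTCA was used together with its variant GGGTCA and with the further variants AGTTCA as well as GGTTCA. These were taken in any pairing, spaced by 1 (DR1), 2 (DR2) or 5 bases (DR5). Of 146403 promoter windows of 300 bases, 0.0499% held a DR5, 0.320% a DR2 and 0.195% a DR1. The shown windows of RARA and RXRA held no match, and the RARB window held the DR5 above. A few DR5 matches lay within peaks of the receptor genes and are shown with their half-sites in capitals.
RARA intron 2, chr17:38497905-38497921, plus strand: caggcgAGTTCAgcgagAGTTCAgccgca
RXRA intron 1, chr9:137267364-137267380, plus strand: aaccctGGTTCAtctgaGGGTCAgcccgg
RXRB near promoter 3, chr6:33163248-33163264, plus strand: acctgcAGGTCActcaaAGGTCAcagctc
The RARA match lay 265 bp after the start site of promoter 4, under H3K27ac in ATRA replicate 1 only. The RXRA match lay 3547 bp after promoter 3, next to the H3K4me3 stretch found only in control, and was under H3K27ac in both control and neither ATRA library. The RXRB match was under H3K4me3 in ATRA replicate 2 only. Over all 119.5 Mb found under H3K27ac in any library, DR5 matches numbered 3.05 per Mb. RARB had 4 DR5 matches in its region, none under a peak. DR2 matches also lay within peaks in the RARA and RARG regions. One at RARA, chr17:38489521-38489534, was under H3K27ac in both ATRA libraries and control replicate 2. One in the RARG region, chr12:53644861-53644874, was under H3K4me3 in all 4 libraries.

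Among 13 genes for RXR partners, 4 were higher and 0 lower for H3K4me3, with a median log2 change of 0.17, and 7 were higher and 0 lower for H3K27ac, with a median of 0.65. Over all protein-coding genes 30.0% were higher and 2.46% lower for H3K4me3, and 33.6% and 2.96% for H3K27ac, so the H3K4me3 count lies near that of all genes. The higher ones for H3K4me3 were VDR, PPARA, NR1I3 and NR4A1. For H3K27ac they were VDR, PPARA, PPARD, NR1H3 (the oxysterol receptor LXRα), NR1I3, THRA and NR4A2. H3K27ac peaks at THRA start sites were 0 and 3374 bp in ATRA and 0 and 5503 bp in control, and its region spans MED24 and NR1D1. Those at NR1H3 start sites were 11198 and 10777 bp in ATRA and 4780 and 3170 bp in control. At NR4A2 they were 8987 and 9722 bp in ATRA and 5889 and 8177 bp in control. The regions of NR1H3 and PPARA span 3 and 2 other coding genes. H3K27ac at PPARA, a receptor for fatty acids, covered 11194 and 10033 bp in ATRA and was absent in both control libraries. PPARD, a related receptor, had 5462 and 9569 bp in ATRA and none in control. None of these H3K27ac peaks held a start site of PPARA or PPARD. No H3K27ac peak held a start site of VDR either, and its region also spans HDAC7. H3K4me3 at VDR, the vitamin D receptor, covered 9386 and 6926 bp in ATRA and 5397 and 4446 bp in control, a log2 change of 0.63. The region of NR1I3, a xenobiotic receptor, had 10854 and 10608 bp of H3K4me3 in ATRA and 6454 and 3656 bp in control, a log2 change of 0.95. It spans 5 other coding genes, and no H3K4me3 peak held an NR1I3 start site.

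Of 8 corepressor genes, 3 were higher and 1 lower for H3K4me3 (median 0.19), and 3 were higher and 0 lower for H3K27ac (median 0.42). Against the 30.0% and 33.6% of all genes that were higher, both counts of 8 genes lie near the background, and lower H3K4me3 was called at 2.46% of all genes. TBL1X, a subunit of the NCOR complex, was the lower one, with 993 and 0 bp of H3K4me3 in ATRA and 3153 and 1440 bp in control, a log2 change of -1.14. Its start-site peak was found in both control libraries and in neither ATRA library. TBL1XR1, its close relative, was among the higher ones, as were GPS2 and NRIP1. For H3K27ac, GPS2 and SIN3A were among the higher ones. No H3K27ac peak held a start site of GPS2, whose region spans 4 other coding genes. Of 8 coactivator genes, 4 were higher and 0 lower for H3K4me3 (NCOA1, NCOA3, EP300 and KAT2B, median 0.20), and for H3K27ac 3 were higher (NCOA3, EP300 and MED1) and 1 lower (CARM1), with a median of 0.26. All genes gave 30.0% higher for H3K4me3, and 33.6% higher and 2.96% lower for H3K27ac. NCOA3, a p160 coactivator, had 9875 and 8960 bp of H3K4me3 in ATRA and 4539 and 3552 bp in control, a log2 change of 1.05. Its H3K27ac covered 22663 and 36084 bp in ATRA and 0 and 1704 bp in control, a log2 change of 4.04. H3K27ac peaks at NCOA3 start sites were only 2073 and 4076 bp long in ATRA and 0 and 1704 bp in control. The region also spans SULF2. No H3K27ac peak held a start site of CARM1, whose region spans 3 other coding genes.

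Of 14 genes that supply or clear retinoic acid, 5 were higher and 0 lower for H3K4me3 (DHRS3, DHRS9, ALDH1A3, CRABP2 and FABP5), and 3 higher and 0 lower for H3K27ac (DHRS3, ALDH1A2 and CYP26C1). Among all genes 30.0% and 33.6% were higher, so the first count lies near the background. The second is too small to be read as below it, since 6 of the 14 genes had no H3K27ac peak in any library. Of all genes with an H3K27ac peak, 43.7% were higher. No peak of the called mark lay at the start sites of ALDH1A3, CRABP2 or CYP26C1 in any library. Their regions also span LRRK1 (ALDH1A3), ISG20L2 (CRABP2) and both CYP26A1 and EXOC6 (CYP26C1). Over the 14 genes, no peak was found at 7 for H3K4me3 and at 6 for H3K27ac, and the medians were 0.06 and 0.00. DHRS3, which reduces retinaldehyde to retinol, had 24247 and 19013 bp of H3K27ac in ATRA and 0 and 357 bp in control, a log2 change of 4.26. H3K4me3 at its start sites was 7355 and 5666 bp in ATRA and 2492 and 1770 bp in control. DHRS9, a retinol dehydrogenase, had 7851 and 6472 bp of H3K4me3 in ATRA and 403 and 0 bp in control, a log2 change of 2.76. The region of ALDH1A2, a retinaldehyde dehydrogenase, also spans the aquaporin gene AQP9 and the lipase gene LIPC, and had 53968 and 62426 bp of H3K27ac in ATRA and 7413 and 12170 bp in control, a log2 change of 2.46. PML, the fusion partner of RARA in acute promyelocytic leukemia, had 10352 and 9977 bp of H3K4me3 in ATRA and 10325 and 10649 bp in control, and its groups overlapped for both marks.

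The genes whose 8 values were most like those of each receptor were found by the Euclidean distance over log2 of the lengths plus 1000 bp, leaving out genes within 1 Mb. They were CISH (0.87) and SLC19A1 (0.87) for RARA, TMEM134 (0.67) and TSPO (0.70) for RARG, CTNNBIP1 (0.82) and GNB5 (0.84) for RXRA, and LSMEM2 (0.59) and NAA80 (0.61) for RXRB. SLC19A1, the reduced folate carrier gene, had 42118 and 26786 bp of H3K27ac in ATRA and 12435 and 16194 bp in control. CTNNBIP1, a β-catenin inhibitor gene, had 5154 and 5003 bp of H3K4me3 in ATRA and 7518 and 5976 bp in control, lower in ATRA as at RXRA. GNB5 overlapped, with 4899 and 4832 bp in ATRA and 5916 and 4130 bp in control. LSMEM2 and NAA80 had H3K4me3 log2 changes of -0.12 and -0.10, where RXRB was called higher. Since these genes were chosen on the same values, their likeness to a receptor gene is no separate result. For RARB and RXRG, which were nearly empty, the nearest genes were VSIG8 and TCF15 and SLIT1 and CDK5R2, which were nearly empty too.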

How the data were processed

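The ChIP-seq analysis of 8 libraries started from the deposited broad peaks. Adapters had been trimmed and reads mapped to hg19 with Bowtie by the authors, who called broad peaks for each library with MACS2 (no model). The tool versions are not given in the sources used here. The use of their input libraries in peak calling is not stated. Of the deposited columns, the positions were used, and the −log10 q that the authors deposited served only as a filter at 5. Its scale is uncertain, since 0.935% to 2.27% of H3K4me3 and 15.1% to 26.5% of H3K27ac peaks per library lie below 1. The columns for fold enrichment and −log10 p were not used, because their values are impossible for these measures. Genes and TSSs came from GENCODE release 44 on GRCh37, and 0 peaks ran past a chromosome end. Sequences were read from GRCh37. Lengths under peaks, promoters (TSSs joined within 500 bp) and merged stretches were computed with Python 3.11.15 and numpy 2.4.6, and figures with matplotlib 3.10.9. The peak classes used a 1 bp overlap and replicate 1 peaks. On simulated peaks, 100% of 400 changed regions among 7834 were called. How often regions of the real libraries were called wrongly was not tested. The genes, lists and rules were chosen with earlier results of these data known. From each list, the genes called and those with the 2 largest changes per mark are named, except for some items that are not reported here. Gene regions were repeated under other flanks, pseudocounts, scalings, filters and peak sets and without each library.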

Additional observations from a re-analysis of the deposited data

How the results depend on the processing

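Of 256 alternatives tried, 177 left the value within the spread of the libraries or within 1.5 times the count, 77 moved it and 2 reversed a called log2 change. Both reversals came at −log10 q of at least 5 for H3K27ac, with -1.04 for RARA, whose ATRA libraries were then at 0, and -0.85 for RARG. Leaving out merged stretches over another gene's start site, and log2 changes under other flanks and the q filter, were added after seeing the data. With such stretches left out, RARA and RXRB were higher for H3K4me3, and RARA, RARB, RARG and RXRB for H3K27ac. Leaving out only single peaks over another gene's start site, a planned setting, gave the same for H3K4me3 but lost RARG for H3K27ac. RXRA was lower for H3K4me3 in all settings except the number of peaks, where 0 genes were lower and 0 higher. For H3K4me3, 1 gene region instead of 2 was higher with a flank of 50 kb, with shares of the library's length and with −log10 q of at least 5. For H3K4me3, 2 promoters instead of 4 were higher within 2 kb of the TSSs, with protein-coding transcripts only and with shares, and 1 instead of 0 was lower within 2 kb and with shares. Control-specific H3K4me3 peaks were 2 at −log10 q of at least 5, and ATRA-specific ones 2 there and 3 when absence from each single control library was required. For H3K27ac at −log10 q of at least 5, 0 gene regions and 0 promoters were higher, 1 region (RARA, which was called higher with all peaks) and 0 promoters were lower, and 0 peaks were ATRA-specific. H3K27ac was higher at 8 promoters within 2 kb of the TSSs and at 1 with shares, and lower at 0 with protein-coding transcripts only. With replicate 2 peaks as the base, 11 H3K27ac peaks were ATRA-specific, and with a reciprocal overlap of 50%, 2 were control-specific.

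The replicate numbers are shared only as numbers, since no label pairs the libraries. Deviations of same-numbered libraries correlated at 0.22 for H3K4me3 and 0.56 for H3K27ac over 40 kb bins, from 2 pairs per mark. With the replicate block (same direction within both numbers), RARA joined the higher H3K4me3 regions, 5 H3K27ac gene regions instead of 3 were higher (RXRA and RXRB joined), 1 H3K4me3 promoter was lower, control-specific peaks averaged 2.5 for H3K4me3 and 2 for H3K27ac, and ATRA-specific H3K27ac peaks averaged 13.

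Leaving out 1 library in turn gave 1 to 2 lower H3K4me3 regions (RXRG joined RXRA without control replicate 2), 0 to 3 lower H3K4me3 promoters, 3 to 8 ATRA-specific and 1 to 4 control-specific H3K4me3 peaks. RARA joined the higher H3K4me3 regions without ATRA replicate 2 or control replicate 1. It gave 3 to 5 higher H3K27ac regions, 3 to 9 higher and 1 to 2 lower H3K27ac promoters, 5 to 14 ATRA-specific and 0 to 3 control-specific H3K27ac peaks. The cause of these shifts was not tested, and the depth behind each peak is unknown.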
